A study of Rattus norvegicus with 32 samples.

Results

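Proteasome subunit genes were followed through chronic liver disease in rat liver sinusoidal endothelial cells (LSECs), the fenestrated endothelium that lines the hepatic sinusoids. The members were all genes whose symbol reads Psma, Psmb, Psmc, Psmd, Psme or Psmf followed by a number, 44 of the 32623 genes quantified, a rule on names that uses no expression value, although the family was picked for study with earlier results of these data known. RNA sequencing covered 32 libraries. Healthy LSECs came from 6 untreated Wistar Han rats, acute injury from 5 Wistar Han rats after 2 weeks of carbon tetrachloride (CCl4) inhalation, fibrosis from 5 after 6 weeks, and cirrhosis from 6 after 12 to 14 weeks, a duration taken from the description of the study. CCl4 poisons hepatocytes, and repeated exposure leaves the liver scarred. The study's methods add that the rats were male, that phenobarbital was given in the drinking water in the CCl4 model, and that cells were isolated several days after the last dose. A separate experiment with thioacetamide (TAA), another hepatotoxin, gave 5 libraries labelled control (T1 to T5) and 5 labelled TAA control rat (T10 and T12 to T15). The labels call both of these groups Wistar Han whereas the description of the study names Sprague-Dawley rats, and which group received TAA could not be settled, so differences between them are given only as TAA control minus control.

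The proteasome degrades proteins that carry ubiquitin chains. Its barrel-shaped core stacks rings of alpha subunits (Psma), which gate the entrance, on rings of beta subunits (Psmb), 3 of which cut peptide bonds. A regulatory particle of ATPases (Psmc) and non-ATPase subunits (Psmd) binds ubiquitinated proteins, unfolds them and feeds them into the core, and further caps (Psme) open the core without ubiquitin. Under interferon, cells replace the cutting subunits Psmb6, Psmb7 and Psmb5 by Psmb9, Psmb10 and Psmb8, which turns the core into the immunoproteasome and shifts its products toward peptides suited to MHC class I. LSECs are known for taking up and presenting antigens from portal blood.

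Healthy libraries held 33742363 to 41228823 counts, acute 32037705 to 36916982, fibrosis 28205861 to 30679808, cirrhosis 38812832 to 46464271, and the 2 groups of the TAA experiment 25646501 to 32631581. The members took 0.291% to 0.431% of the counts of healthy libraries, 0.73% to 0.923% in acute injury, 0.719% to 0.822% in fibrosis, 0.313% to 0.372% in cirrhosis, and 0.293% to 0.35% in the TAA experiment. LSEC markers (8 of the 9 listed were in the files, all above 1 CPM, counts scaled to library size) summed to 12380 to 24390 CPM in healthy and 13620 to 17810 in cirrhotic libraries, but only to 3625 to 4415 in acute injury and 2608 to 3412 in fibrosis. Healthy replicates 5 and 6 stood apart from replicates 1 to 4, with both lying below all of the others for 19 of 42 members and above all of them for 6, against 21.6% and 26.4% of the 12914 genes with a healthy mean of at least 1 CPM. RSEM gave counts that were not whole, from reads shared with similar sequences, for some members. This held in 16 of 32 libraries for Psma4, 19 for Psmb8 and Psmb3, and 26 for Psmb5. It held in 29 for Psma6 and Psmd12, 31 for Psma3 and Psmb6, and all 32 for Psme1 and Psme3. Part of the counts of these members is therefore uncertain. Some values that rest on healthy replicates 5 and 6 are given with and without them.

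Promoter windows of 6 members are shown first, the 3 inducible subunits because their levels fell at every stage, Psmb5 as the constitutive counterpart of Psmb8, and Psma4 and Psmd1 because they had the largest rises. Each window runs from 250 bases before to 50 bases after the transcription start in RefSeq (build GRCr8, gene strand, 5′ to 3′), and 39 of the 44 members had such a window. Capitals mark matches on either strand to the interferon-stimulated response element (ISRE; GAAA, any 2 bases, GAAA) and the antioxidant response element core TGACNNNGC (ARE), the last being a sequence bound by NRF1 (Nfe2l1), a factor known to drive subunit genes. Positions count from the start, with the first transcribed base as 1 and no 0. The windows were chr20:4668750-4669049, plus strand for Psmb9, chr19:50743243-50743542, minus strand for Psmb10, chr20:4656982-4657281, minus strand for Psmb8, chr15:32047330-32047629, minus strand for Psmb5, chr8:64236270-64236569, plus strand for Psma4, and chr9:94157721-94158020, plus strand for Psmd1.
Psmb9: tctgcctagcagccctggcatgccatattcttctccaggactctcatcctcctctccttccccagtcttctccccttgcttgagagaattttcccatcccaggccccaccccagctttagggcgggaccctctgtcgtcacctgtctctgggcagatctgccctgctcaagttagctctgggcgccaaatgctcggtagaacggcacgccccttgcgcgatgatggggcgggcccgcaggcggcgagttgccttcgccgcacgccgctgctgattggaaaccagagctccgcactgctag
Psmb10: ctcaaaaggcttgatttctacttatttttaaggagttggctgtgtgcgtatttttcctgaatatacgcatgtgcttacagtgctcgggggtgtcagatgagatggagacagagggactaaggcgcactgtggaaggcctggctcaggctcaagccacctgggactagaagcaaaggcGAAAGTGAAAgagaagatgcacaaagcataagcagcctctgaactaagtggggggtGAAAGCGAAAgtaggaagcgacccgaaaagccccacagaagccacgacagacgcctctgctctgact
Psmb8: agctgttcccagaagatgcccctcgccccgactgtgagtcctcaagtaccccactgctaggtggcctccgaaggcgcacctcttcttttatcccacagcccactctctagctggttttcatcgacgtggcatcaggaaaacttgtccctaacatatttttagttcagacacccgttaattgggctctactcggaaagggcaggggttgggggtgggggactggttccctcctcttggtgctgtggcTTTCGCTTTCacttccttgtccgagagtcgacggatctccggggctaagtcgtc
Psmb5: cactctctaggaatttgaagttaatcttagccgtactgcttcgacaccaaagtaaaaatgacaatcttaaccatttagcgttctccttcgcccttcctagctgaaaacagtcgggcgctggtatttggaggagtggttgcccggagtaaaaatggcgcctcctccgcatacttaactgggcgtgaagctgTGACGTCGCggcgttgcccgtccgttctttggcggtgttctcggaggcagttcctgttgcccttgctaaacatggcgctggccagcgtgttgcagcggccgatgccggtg
Psma4: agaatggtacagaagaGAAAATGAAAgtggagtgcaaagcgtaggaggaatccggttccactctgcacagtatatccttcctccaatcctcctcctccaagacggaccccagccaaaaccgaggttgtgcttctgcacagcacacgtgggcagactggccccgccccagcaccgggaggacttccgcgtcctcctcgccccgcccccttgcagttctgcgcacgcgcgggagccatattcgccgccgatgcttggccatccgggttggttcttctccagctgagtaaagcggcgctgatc
Psmd1: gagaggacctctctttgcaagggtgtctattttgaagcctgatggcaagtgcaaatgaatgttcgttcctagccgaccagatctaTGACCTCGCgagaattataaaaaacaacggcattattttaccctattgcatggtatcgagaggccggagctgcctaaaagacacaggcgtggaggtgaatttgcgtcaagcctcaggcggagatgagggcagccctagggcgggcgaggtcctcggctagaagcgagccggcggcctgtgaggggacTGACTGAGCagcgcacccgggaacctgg

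The Psmb10 window held 2 ISRE matches, at −73 and −17, and the Psmb8 window held 1 at −4. The Psmb9 window held no match to either motif. Its start lies 457 bases from that of Tap1, a peptide transporter gene on the opposite strand. An ISRE match was found in 6 of the 39 member windows (15.4%; Psma4, Psmb3, Psmb8, Psmb10, Psmd7 and Psme2), against 3.92% of all 33469 windows. The ARE core was found in 8 (20.5%; Psma3, Psmb2, Psmb5, Psmb6, Psmd1, Psmd3, Psmd9 and Psme4), against 12.1%. CCAAT boxes, which NF-Y binds and which are not marked in capitals, were found in 20 windows (51.3%), against 37.5%. A match is a description of the letters and not evidence of binding, and no binding was measured. Motifs were searched on both strands and can overlap, and each was counted on its own.

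Under the main scaling of counts (TMM), the genes of the alpha ring and of the regulatory particle were higher in acute injury than in healthy LSECs. Those of the constitutive beta ring changed little, and all 3 inducible beta subunits were lower. A gene was called differentially expressed when it passed a limma-voom p of 0.05 and changed more than 1.5-fold. Of 42 members tested, 25 rose and 5 fell after 2 weeks, where 35.8% of the 14317 genes tested rose and 38.3% fell. After 6 weeks 24 rose and 5 fell, where 35.8% and 35.4% of 14538 genes did. All of these also had a Benjamini-Hochberg adjusted p under 0.05. Without healthy replicates 5 and 6 the counts were 24 and 5 in acute injury and 23 and 7 in fibrosis. The median log2 fold change of the members was 1.06 in acute injury, where that of all genes was −0.09, and 0.90 in fibrosis, where that of all genes was −0.03. The libraries did not overlap, with injury above healthy, for 26 members at each of the 2 stages (background 29.3% at each), and with injury below healthy for 3 members in acute injury (background 30.8%) and 4 in fibrosis (background 29.4%). The 2 comparisons share the healthy libraries.

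**Figure D1:**
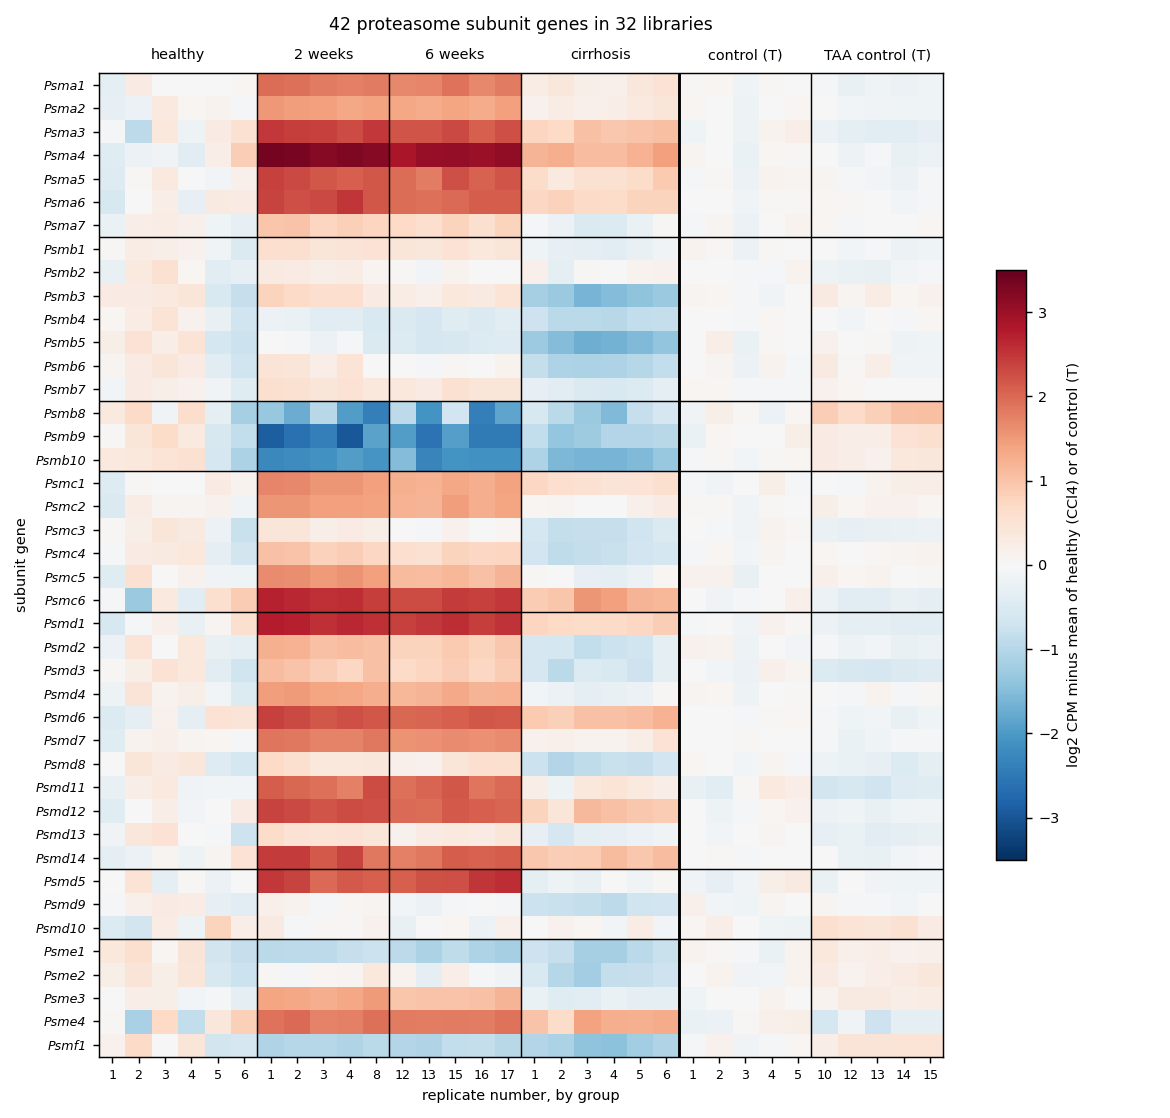
Heat map of the 42 tested members (rows, grouped by role with black lines) in the 32 libraries (columns, by group and replicate number). Color is log2 CPM minus the mean of the healthy libraries, or minus the mean of the control libraries in the TAA experiment, red higher and blue lower. The alpha ring and most Psmc and Psmd rows are red at 2 and 6 weeks, Psmb8, Psmb9 and Psmb10 are blue there, and Psmb3, Psmb5 and Psmb6 are blue in cirrhosis.

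The alpha ring rose as a whole. All 7 members were called at both stages, with log2 fold changes from 0.90 (Psma7) to 3.32 (Psma4) in acute injury and from 0.78 to 3.13 in fibrosis. Psma4 (ENSRNOG00000013493), an alpha subunit near the gate, had 15.03 CPM in the lowest, 18.0 in the median and 37.3 in the highest healthy library. Acute libraries had 211, 206, 187, 201 and 189 CPM, and fibrosis libraries 150, 171, 175, 168 and 176. Every injured library was thus far above the highest healthy one, which was replicate 6. The log2 fold change was 3.32 ± 0.22 (SE) in acute injury (limma-voom, adjusted p = 5.54e-08) and 3.13 ± 0.21 in fibrosis (adjusted p = 1.14e-07). Summed over the ring, healthy libraries had 380 ± 47.7 CPM (SD, n = 6), acute 1449 ± 61.8 (n = 5) and fibrosis 1270 ± 69.2 (n = 5).

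The ATPases of the regulatory particle followed the same pattern. Of the 6 Psmc genes 5 rose at both stages, from 0.92 (Psmc4) to 2.63 (Psmc6) in acute injury, and Psmc3 did not pass (0.34, adjusted p = 0.132, and 0.12, adjusted p = 0.567). The call of Psmc4 in fibrosis was lost without healthy replicate 6 (0.576). Psmc6 varied widely among healthy rats, from 11.4 CPM in replicate 2 to 53.5 in replicate 6. Of the 11 non-ATPase subunits 9 rose at both stages. Psmd8 (0.51) and Psmd13 (0.55) were positive in acute injury but under the fold threshold, with adjusted p-values of 0.0345 and 0.0198. Psmd13 was called without healthy replicate 1, 2, 3 or 4 (0.60 to 0.70), and Psmd8 without replicate 3 or 4 (0.62 and 0.66).

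Psmd1 (ENSRNOG00000017730), one of the large scaffold subunits to which ubiquitin receptors and shuttles dock, had the second largest rise. Its healthy libraries had 48.1 CPM in the lowest, 72.9 in the median and 105 in the highest. Acute libraries had 476, 473, 421, 446 and 422 CPM. Fibrosis libraries had 375, 399, 430, 381 and 410, so neither group came near the healthy range. The log2 fold change was 2.69 ± 0.18 in acute injury and 2.57 ± 0.18 in fibrosis (adjusted p = 7.55e-08 and 1.22e-07). Psmd14, which removes the ubiquitin chain from the substrate, rose by 2.30 and 2.10 log2 units, and Psmd4, a ubiquitin receptor, by 1.44 and 1.31. Psmd2, the other large scaffold subunit, had the highest acute mean among the Psmd members at 518 ± 39.2 CPM (SD, n = 5) against 243 ± 59.5 in healthy LSECs (n = 6), a log2 fold change of 1.16 (adjusted p = 4.62e-05).

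The Psmd numbering also holds 3 chaperones that help assemble the ATPase ring and leave before the particle is complete. Psmd5 rose by 2.28 ± 0.17 log2 units in acute injury and by 2.45 ± 0.17 in fibrosis (adjusted p = 1.82e-07 and 1.14e-07). Its healthy libraries ran from 12.8 to 23.0 CPM, its acute libraries from 65.5 to 93.6 and its fibrosis libraries from 71.3 to 99.9. Psmd9 (0.12 and 0.01) and Psmd10 (0.14 and 0.04) did not pass at either stage, with adjusted p-values of 0.479 or more.

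The constitutive beta ring stood apart from its neighbors in the same particle. Of its 7 members only Psmb3, a non-catalytic subunit, was called in acute injury (0.62 ± 0.24, adjusted p = 0.0299), and none in fibrosis. This call did not hold in edgeR (0.55), nor without healthy replicates 5 and 6 together (0.38). By adjusted p alone, without a fold threshold, 3 of its members were higher in acute injury (Psmb1, Psmb3 and Psmb7) and 2 in fibrosis (Psmb1 and Psmb7), each by at most 0.62 log2 units, where 37.5% of all genes were higher at either stage. Single healthy libraries also tipped calls the other way in acute injury. Psmb1 was called higher without healthy replicate 1, 2, 3 or 4 (0.59 to 0.64). Psmb7 was called higher without healthy replicate 3 or 4 (0.60 and 0.61). Summed over the ring, healthy libraries had 920 ± 227 CPM (SD, n = 6), acute 1041 ± 85.2 (n = 5) and fibrosis 915 ± 42.9 (n = 5). Without TMM the ring was less flat, and the median of all genes moved from −0.09 to 0.32 in acute injury. Mean CPM in healthy, acute and fibrosis libraries were then 106.3, 205.5 and 198.4 for Psmb1. Psmb2 had 81.87, 129.8 and 114.1, Psmb3 118.3, 235.9 and 200.7, and Psmb4 186.7, 197.9 and 183.6. Psmb5 had 86.22, 102.2 and 81.35, Psmb6 68.04, 114.7 and 94.57, and Psmb7 92, 174.1 and 169.8.

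Among the constitutive cutting subunits, Psmb5 (ENSRNOG00000013386; chymotrypsin-like activity) had 59.5 CPM in the lowest, 117 in the median and 143 in the highest healthy library. It had 102, 96.5, 88.2, 99.3 and 71.3 CPM in acute injury and 72.1, 67.9, 69.1, 73.0 and 74.6 in fibrosis, inside the healthy range at both stages. The log2 fold changes were −0.12 (adjusted p = 0.658) and −0.41 (adjusted p = 0.131). Without healthy replicates 5 and 6, the 2 lowest healthy libraries, the fibrosis value was −0.75 and called lower, as was Psmb4 (−0.62). Psmb6 (ENSRNOG00000019551; caspase-like activity) had 50.1, 93.2 and 110 CPM as the lowest, median and highest healthy values, 80.4 to 115 in acute injury and 78.2 to 89.8 in fibrosis, again within the healthy range apart from the highest acute libraries. Psmb7 (ENSRNOG00000011732; trypsin-like activity) had 83.1, 115 and 137 CPM in healthy LSECs. Its acute libraries (164, 164, 151, 159 and 144 CPM) and fibrosis libraries (144, 138, 162, 151 and 151) all lay above these, by 0.51 and 0.50 log2 units (adjusted p = 0.00565 and 0.00608), and stayed under the fold threshold.

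**Figure D2:**
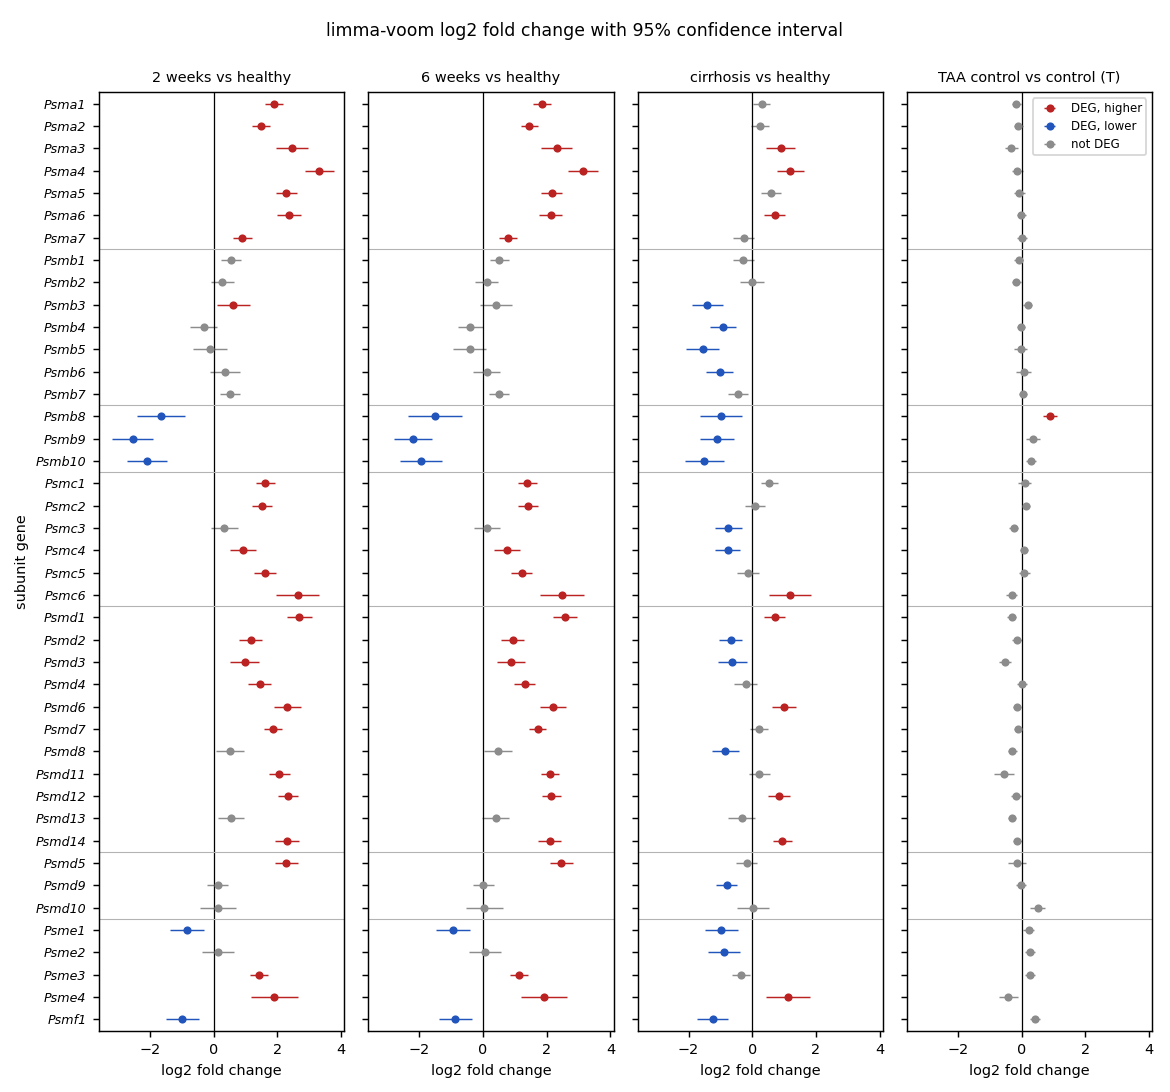
limma-voom log2 fold changes with 95% confidence intervals for the 42 tested members (rows) in 4 comparisons (panels); red and blue points passed the p-value and fold thresholds, gray points did not. At 2 and 6 weeks the alpha ring and most Psmc and Psmd genes lie to the right and Psmb8, Psmb9 and Psmb10 to the left, in cirrhosis 9 are right and 16 left, and in the TAA experiment only Psmb8 passed.

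The inducible subunits fell at all stages. Psmb9 (ENSRNOG00000000459), which replaces Psmb6, had 76.4 CPM in the lowest, 160 in the median and 217 in the highest healthy library. It had 18.6, 22.7, 26.1, 17.5 and 37.6 CPM in acute injury and 35.7, 22.9, 36.7, 24.9 and 25.04 in fibrosis. All 10 of these libraries were below the lowest healthy one, which was replicate 6. The log2 fold change was −2.54 ± 0.30 in acute injury (adjusted p = 8.04e-06) and −2.21 ± 0.28 in fibrosis (adjusted p = 1.68e-05). In cirrhosis the lowest, median and highest values were 54.2, 68.3 and 77.2 CPM, with only the highest library reaching the healthy range, and the log2 fold change was −1.12 ± 0.25 (adjusted p = 0.00248).

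Psmb10 (ENSRNOG00000019494), which replaces Psmb7, gave the same order of groups. Healthy libraries had 69.4 CPM in the lowest, 193 in the median and 217 in the highest. Acute libraries had 31.1, 32.3, 34.1, 38.2 and 35.7 CPM and fibrosis libraries 52.4, 30.1, 35.2, 34.2 and 34.0, all below the healthy range. Cirrhotic libraries had 48.5, 50.8 and 71.3 CPM as lowest, median and highest, with only the highest inside it. The log2 fold changes against healthy LSECs were −2.10 ± 0.29, −1.96 ± 0.31 and −1.50 ± 0.28 (adjusted p = 3.21e-05, 0.000102 and 0.000843).

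Psmb8 (ENSRNOG00000000456), which replaces Psmb5, varied more between rats of a group. Healthy libraries had 79.8 CPM in the lowest, 196 in the median and 287 in the highest. Acute libraries had 72.1, 53.4, 91.7, 46.3 and 34.2 CPM and fibrosis libraries 94.9, 41.99, 113, 33.6 and 49.3. Acute replicate 3 and fibrosis replicates 12 and 15 reached into the healthy range, so the groups overlapped. The log2 fold changes were −1.65 ± 0.35, −1.51 ± 0.39 and, in cirrhosis, −0.99 ± 0.31 (adjusted p = 0.000852, 0.00382 and 0.0141), and they kept their direction and call in all alternatives computed, including without healthy replicates 5 and 6. Summed over the 3 genes, healthy libraries had 510 ± 186 CPM (SD, n = 6), acute 118 ± 20.2 (n = 5), fibrosis 133 ± 47.1 (n = 5) and cirrhotic 217 ± 37.8 (n = 6).

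**Figure D3:**
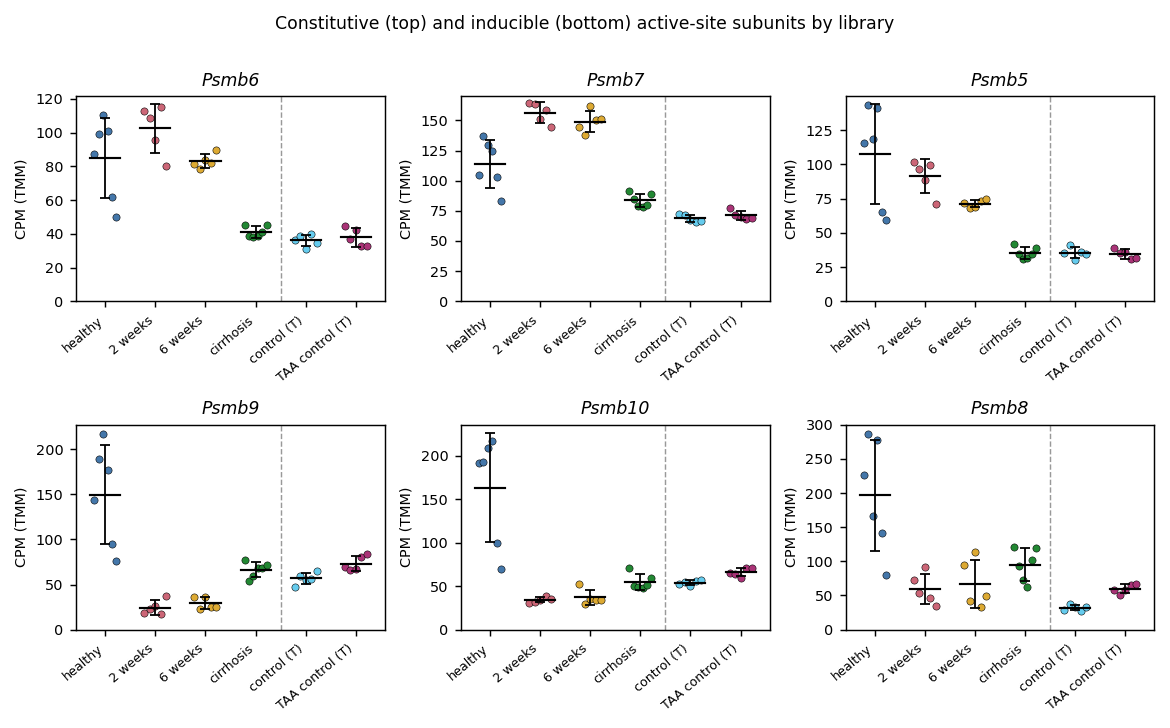
CPM of the 3 constitutive cutting subunits (top) and the inducible subunit that replaces each (bottom) in every library, with the group mean and SD in black; the dashed line parts the CCl4 model from the TAA experiment, which was scaled separately. Within the CCl4 model the inducible genes are lowest at 2 and 6 weeks, where the constitutive genes overlap the healthy libraries or lie above them. In cirrhosis the constitutive genes are below the healthy mean.

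Other cell types of the liver also express these subunits, and in bulk samples fewer cells of a type and less RNA per cell cannot be told apart. Macrophage and Kupffer cell markers (9 to 10 of the 10 listed above 1 CPM) summed to 331 to 3515 CPM in healthy, 78.6 to 232 in acute, 32.6 to 206 in fibrosis and 804 to 2933 in cirrhotic libraries, with Timd4 at 0 in every acute and fibrosis library. Lymphocyte and natural killer cell markers (2 to 9 of 12 above 1 CPM) summed to 39.8 to 568, 19.5 to 39.8, 13.2 to 105 and 67.7 to 154 CPM in the same order. Hepatocyte markers (6 to 8 of 8 above 1 CPM) summed to 1270 to 27990 CPM in healthy, 142 to 919 in acute, 1269 to 5008 in fibrosis and 2992 to 15020 in cirrhotic libraries. Stellate cell and fibroblast markers (5 to 7 of 8 above 1 CPM) summed to 163 to 604, 8.92 to 31.6, 37.1 to 172 and 481 to 1774 CPM in that order. Cholangiocyte markers (1 to 4 of 5 above 1 CPM) summed to 1.92 to 26.5, 36.2 to 105.6, 7.65 to 105.2 and 7.23 to 33.4 CPM. The sum was higher in acute injury, but only 1 of the 5 was above 1 CPM there. That rise therefore rested mostly on 1 gene and not on the markers as a set. Proliferation genes (6 to 8 of 8 above 1 CPM) summed to 375 to 591, 174 to 243, 164 to 209 and 369 to 447 CPM. Immediate early and dissociation stress genes (11 of 11 above 1 CPM in each group) summed to 29250 to 60480 CPM in healthy, 1363 to 4955 in acute, 4119 to 6561 in fibrosis and 22180 to 41570 in cirrhotic libraries. Healthy rats also differed among themselves in these markers. Replicates 3 and 5 had the lowest hepatocyte sums (3409 and 1270 CPM) and macrophage sums (331 and 401 CPM), where replicate 6 had 23260 and 1443. In log2 CPM, replicate 5 correlated more with replicate 3 (0.967) than with replicate 6 (0.946). The part of these genes and cells in the changes of the members was not tested.

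The count of each inducible gene over that of its constitutive counterpart in the same library needs no scaling between libraries. Because it also depends on the length of the 2 transcripts, it is read only across groups, as a description. Psmb9 over Psmb6 was 1.53 to 1.97 in healthy libraries, 0.152 to 0.468 in acute injury, 0.279 to 0.440 in fibrosis and 1.41 to 1.79 in cirrhosis. Both early stages thus lay below every healthy library, whereas cirrhosis overlapped it. Psmb10 over Psmb7 was 0.836 to 1.83, 0.190 to 0.248, 0.217 to 0.363 and 0.595 to 0.781 in that order, with cirrhosis below every healthy library and above every early one. Psmb8 over Psmb5 was 1.34 to 2.16, 0.466 to 1.04, 0.461 to 1.64 and 1.96 to 3.09. For this pair the cirrhotic libraries reached above the healthy ones, Psmb5 itself being lower there, and only fibrosis replicate 15 among the early libraries reached the healthy range. In healthy replicates 5 and 6, Psmb9 over Psmb6 was 1.54 and 1.53 against 1.64 to 1.97 in the other 4, and Psmb10 over Psmb7 was 0.966 and 0.836 against 1.41 to 1.83. Psmb8 over Psmb5 was 2.16 and 1.34 there against 1.40 to 2.01.

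**Figure D4:**
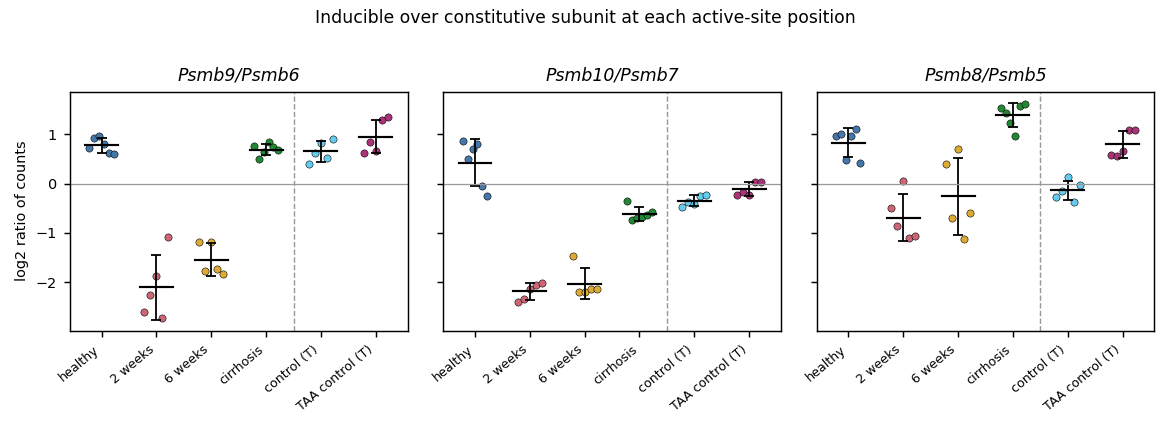
log2 ratio of the counts of each inducible subunit to its constitutive counterpart by library, with the group mean and SD in black; the dashed line parts the CCl4 model from the TAA experiment. The ratios fall at 2 and 6 weeks for all 3 pairs, overlap the healthy libraries in cirrhosis for Psmb9 over Psmb6, and are higher in the TAA control libraries than in the control libraries for Psmb8 over Psmb5.

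The caps and the inhibitor went different ways. Psme1 (ENSRNOG00000019041) and Psme2 (ENSRNOG00000019246) encode the 2 chains of the interferon-inducible cap PA28, and Psme1 fell while Psme2 did not pass. Psme1 had 188, 381 and 480 CPM as the lowest, median and highest healthy values, 170, 173, 173, 185 and 194 in acute injury, and 172, 151, 175, 153 and 147 in fibrosis. The injured libraries were close to healthy replicates 5 and 6 (209 and 188 CPM) and far below replicates 1 to 4 (340 to 480). The log2 fold changes were −0.84 ± 0.25 and −0.95 ± 0.25 (adjusted p = 0.00829 and 0.00416), and −0.42 and −0.55, no longer called, when libraries were scaled by total counts without TMM. Psme2 had 71.8, 139 and 164 CPM in healthy LSECs, 114 to 157 in acute injury and 96.3 to 141 in fibrosis (0.14, adjusted p = 0.6, and 0.06, adjusted p = 0.821).

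Psme3 (ENSRNOG00000051344), the nuclear cap PA28 gamma, rose at both early stages. Healthy libraries had 60.5, 74.8 and 89.6 CPM as lowest, median and highest. Acute libraries had 198, 194, 182, 194 and 215 CPM and fibrosis libraries 147, 151, 152, 154 and 172, with no overlap. These were rises of 1.41 ± 0.13 and 1.13 ± 0.13 log2 units (adjusted p = 1.22e-06 and 6.44e-06).

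Psme4 (ENSRNOG00000060340) encodes PA200, a large cap known for degrading acetylated histones. It had 28.5, 74.3 and 112 CPM in healthy libraries, 238, 248, 210, 214 and 241 in acute injury and 223, 220, 225, 218 and 235 in fibrosis. Healthy rats differed widely, replicates 2 and 4 being lowest, but the highest of them was far below every injured library of these 2 stages. It rose by 1.90 ± 0.34 and 1.92 ± 0.34 log2 units (adjusted p = 0.000239 and 0.000244).

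Psmf1 (ENSRNOG00000009640) encodes PI31, first described as an inhibitor of the core. Its healthy libraries had 43.4, 71.3 and 107 CPM, its acute libraries 32.4, 34.0, 33.6, 32.7 and 34.9, and its fibrosis libraries 33.0, 32.5, 37.2, 37.7 and 34.7. All injured libraries were below the healthy range, by −0.98 ± 0.23 and −0.87 ± 0.24 on the log2 scale (adjusted p = 0.00207 and 0.00518). These calls were also lost without TMM (−0.57 and −0.47).

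**Figure D5:**
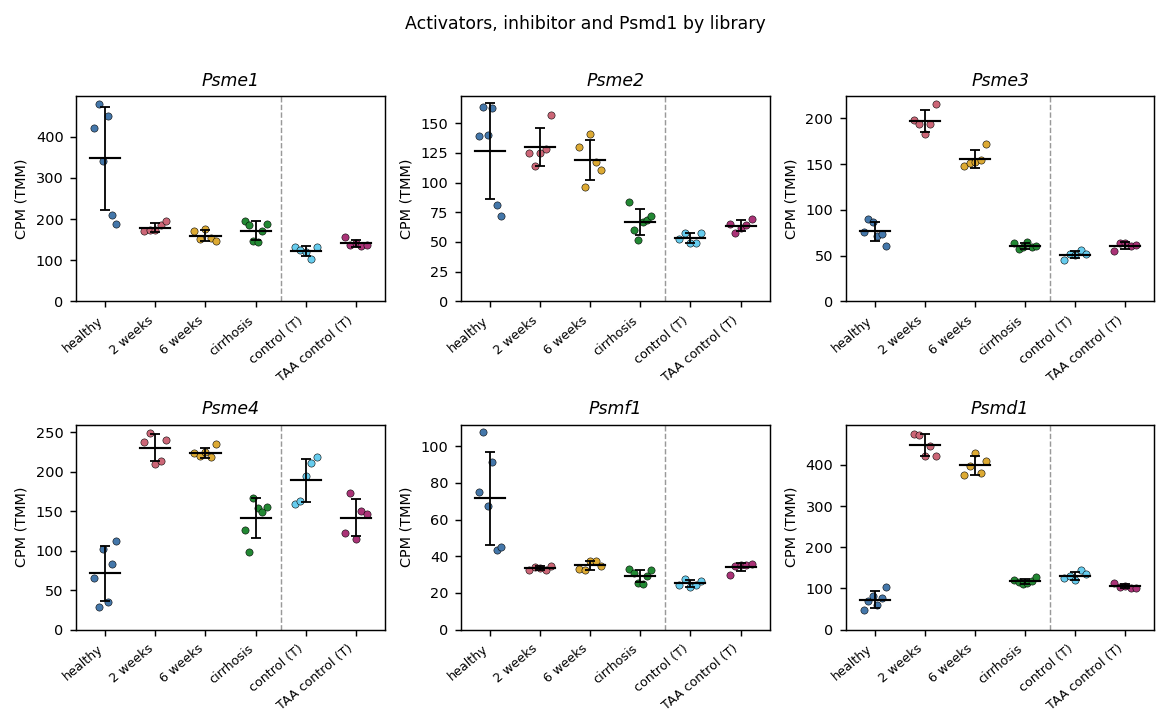
CPM of the caps Psme1 to Psme4, of the inhibitor Psmf1 and of the scaffold subunit Psmd1 in every library, with the group mean and SD in black; the dashed line parts the CCl4 model from the TAA experiment. Within the CCl4 model Psme3, Psme4 and Psmd1 peak at 2 and 6 weeks. The means of Psme1 and Psmf1 are below the healthy mean from 2 weeks on, with Psme1 overlapping healthy libraries at 2 weeks and in cirrhosis.

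In cirrhosis the members split within the core particle. Of 42 members 9 rose and 16 fell, where 28.8% of the 14789 genes tested rose and 25.7% fell. The median log2 fold change was −0.24, where that of all genes was 0.07. The libraries did not overlap for 10 members above and 8 below healthy (background 11.8% and 15.5%). When libraries were scaled by total counts without TMM, which moved the median of all genes from 0.07 to 0.42, 12 members rose and 8 fell, and no member called changed its sign. The members' median was then 0.11, and relative to the median of all genes it stayed at −0.31. Without healthy replicates 5 and 6 the counts were 10 and 17. The members that rose were Psma4 (1.19), Psmc6 (1.19), Psme4 (1.12), Psmd6 (0.997), Psmd14 (0.94), Psma3 (0.88), Psmd12 (0.84), Psma6 (0.70) and Psmd1 (0.69). All 9 were also called at both earlier stages, with larger log2 fold changes there.

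Psma4 had 43.1, 46.98 and 55.9 CPM as the lowest, median and highest cirrhotic values, above every healthy library (adjusted p = 0.000362). Psmc6 had 54.1, 65.8 and 85.0 CPM, also above every healthy library, of which the highest had 53.5 (adjusted p = 0.00526). Psmd1 had 110, 117 and 129 CPM against at most 105 in healthy LSECs. Psme4 had 98.4, 152 and 167 CPM, and its lowest value overlapped healthy replicates 3 and 6 (103 and 112 CPM), with a log2 fold change of 1.12 ± 0.32 (adjusted p = 0.00949).

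On the beta ring, Psmb5 had the largest fall of all members in cirrhosis. It had 30.9, 34.5 and 41.97 CPM as lowest, median and highest, below the lowest healthy library with 59.5, and the log2 fold change was −1.55 ± 0.24 (adjusted p = 0.000248). Psmb3 fell by 1.42 (adjusted p = 0.000333), with 45.0 to 62.2 CPM against 80.1 to 190 in healthy LSECs. Psmb6 fell by 1.03 (adjusted p = 0.00111), with 38.0 to 45.4 CPM against 50.1 to 110, and Psmb4 by 0.91 (adjusted p = 0.0015). None of these 4 overlapped the healthy range, although Psmb4 was no longer called without TMM (−0.57). Psmb7 was lower without passing the fold threshold (−0.46, adjusted p = 0.0159), and Psmb1 (−0.29) and Psmb2 (−0.01) did not pass.

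The other members that fell in cirrhosis were the ATPases Psmc3 (−0.75) and Psmc4 (−0.78), the non-ATPase subunits Psmd2 (−0.67), Psmd3 (−0.63) and Psmd8 (−0.85), the chaperone Psmd9 (−0.81), Psme1 (−0.97), Psme2 (−0.89), Psmf1 (−1.25) and the 3 inducible subunits. Without TMM, Psmc3, Psmc4, Psmd2, Psmd3, Psmd8, Psmd9 and Psme2 were no longer called. Psmf1 had 25.02, 30.0 and 32.8 CPM as its lowest, median and highest values, all below the healthy range. Psme1 had 145, 178 and 196 CPM and Psme2 51.2, 67.6 and 83.8, and these values reached healthy replicate 6 for Psme1 and replicates 5 and 6 for Psme2. Psmd5, which had risen strongly, was back at 12.8 to 16.7 CPM (−0.18, adjusted p = 0.344), and Psme3 was at 56.7, 59.7 and 64.2 CPM (−0.35, adjusted p = 0.0326, under the fold threshold).

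Between 2 and 6 weeks no member was called in either direction, where 14.3% of the 13931 genes tested rose and 1.39% fell. At an unadjusted limma-voom p under 0.05 alone 10 members differed, 1 higher and 9 lower, and edgeR and DESeq2 also called 0. Psmc5 (−0.34 ± 0.06) and Psme3 (−0.24 ± 0.06) were lower with an adjusted p of 0.00557 and 0.0177 but less than 1.5-fold, and by adjusted p alone 8.01% of all genes were lower. The fibrosis libraries lay below all acute ones for 11 members and above for 0 (background 12.6% and 6.09%). Psmb9 (0.39 ± 0.21), Psmb8 (0.18 ± 0.37) and Psmb10 (0.19 ± 0.14) had adjusted p-values of 0.214 or more.

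Between 6 weeks and cirrhosis 34 of the 42 members fell and 1 rose, where 29.7% and 34.5% of 15186 genes did, and the median log2 fold change was −1.15, where that of all genes was 0.04. The libraries did not overlap for 35 members below and 1 above (background 30.5% and 32.4%). All members of the alpha ring, the ATPases and the non-ATPase subunits fell, from −0.67 (Psmd13) to −1.89 (Psma4). The largest fall was that of the chaperone Psmd5 (−2.58 ± 0.11, adjusted p = 1.34e-09). Psmb9 was the member that rose (1.15 ± 0.15, adjusted p = 1.45e-05), without overlap. Psmb10 (0.51, adjusted p = 0.00638) stayed under the fold threshold, but was called without fibrosis replicate 12 (0.64). Psmb8 (0.58, adjusted p = 0.111) did not pass but was called without fibrosis replicate 12 or 15 or cirrhosis replicate 4. Psme1 (0.04), Psmd10 (0.04) and Psmb2 (−0.06) differed least.

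Against acute injury, cirrhosis again had 34 lower members and 3 higher, where 31.9% and 37.8% of 15005 genes were, with a median of −1.34 against 0.04 for all genes. These 3 were Psmb9 (1.47 ± 0.17, adjusted p = 5.65e-06), Psmb8 (0.68 ± 0.25, adjusted p = 0.0246) and Psmb10 (0.63 ± 0.11, adjusted p = 0.000156). The libraries did not overlap for Psmb9 and Psmb10, while those of Psmb8 did. The Psmb8 call was lost without acute replicate 8 (0.49, adjusted p = 0.0723), in 1 fit over the 4 CCl4 groups (0.68, adjusted p = 0.0792) and with the replicate number as a block (0.37, adjusted p = 0.137). That of Psmb10 was lost without cirrhosis replicate 1 (0.57) and without TMM (0.53). For 35 members all cirrhotic libraries lay below all acute ones, and for 2 above (background 31.4% and 34.1%).

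In the TAA experiment the differences were small. Of 42 members 1 was higher in the TAA control libraries and 0 were lower, where 13.5% and 15.9% of the 14376 genes tested were. That member was Psmb8, with 29.4, 37.1, 32.6, 27.9 and 33.8 CPM in the control libraries and 58.4, 51.3, 57.6, 65.8 and 67.2 in the TAA control libraries. The groups did not overlap, and the log2 fold change was 0.90 ± 0.10 (limma-voom, adjusted p = 7.77e-05), held when any library was left out.

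The other inducible subunits differed in the same direction by less than 1.5-fold. Psmb9 had 47.8, 59.4, 55.5, 56.5 and 65.1 CPM in control and 69.4, 66.6, 67.0, 79.98 and 83.3 in TAA control libraries (0.36 ± 0.10, adjusted p = 0.0136). Psmb10 had 52.1, 55.3, 50.2, 55.8 and 57.0 against 65.4, 64.0, 59.6, 70.5 and 70.8 (0.28 ± 0.07, adjusted p = 0.00732). Neither pair of groups overlapped. Psmb8 over Psmb5, by counts, was 0.774 to 1.09 in control and 1.47 to 2.14 in TAA control libraries.

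By adjusted p alone, 9 members were higher and 10 lower in the TAA control libraries, where 25.9% and 23.8% of genes were, and the libraries did not overlap for 8 above and 9 below (background 17.7% and 17.4%). The 9 higher ones were the 3 inducible subunits, Psme1 (0.22), Psme2 (0.26), Psme3 (0.25), Psmf1 (0.42), Psmd10 (0.50) and Psmb3 (0.18). The lower ones included Psmd11 (−0.56), Psmd3 (−0.53), Psme4 (−0.42) and Psmd1 (−0.32). Psmd11 was called in edgeR (−0.59), in DESeq2 (−0.60) and without TMM (−0.60). Psme1 had 131, 125, 119, 102 and 132 CPM in control and 156, 137, 142, 135 and 137 in TAA control libraries, and Psmf1 24.5, 27.8, 23.3, 24.1 and 26.6 against 30.0, 34.4, 35.0, 35.2 and 35.6, neither overlapping.

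Psmb5 (29.9 to 41.1 against 30.8 to 39.2 CPM), Psmb6 (31.2 to 39.6 against 32.7 to 44.8) and Psmb7 (65.97 to 72.1 against 68.5 to 77.0) overlapped, at −0.03 to 0.06 on the log2 scale, and all 3 had an adjusted p of 0.485 or more. Psma4 was at 43.0 to 54.1 and 42.2 to 50.1 CPM. Lymphocyte and natural killer cell markers (5 and 6 of 12 above 1 CPM, with Ms4a1 at 0 in all control libraries) summed to 17.6 to 65.98 CPM in control and 101 to 268 in TAA control libraries, macrophage markers to 22.3 to 151 and 76.4 to 307. Stellate cell and fibroblast markers summed to 1649 to 4697 CPM in control and 205 to 306 in TAA control libraries, and hepatocyte markers to 2245 to 5478 and 638 to 1460. Immediate early and dissociation stress genes summed to 12350 to 26120 and 37880 to 51560 CPM. The part of these cells and genes in the difference in Psmb8 was not tested. Replicates 14 and 15 of the TAA control group were more alike than other pairs, with a chi-square per degree of freedom of 2.96 between their counts. Other pairs of the group had 25.9 to 65.1. The value of 2.96 is above sampling noise, and both were kept and counted as separate rats in the p-values. Whether they share a rat or preparation was not tested. They were also the 2 highest of the group for Psmb8, Psmb9 and Psmb10.

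A pair of members was near absent. Psma8, an alpha subunit known from testis, and Psmb11, a beta subunit known from cortical epithelium of the thymus, had at most 3 counts in any library. Psma8 had a count in 19 of the 32 libraries and Psmb11 in 13, and neither passed the filter on low counts in any comparison. The other 42 members passed it in all comparisons, with group means from 4.65 CPM (Psmd10, control libraries of the TAA experiment) to 518 CPM (Psmd2, acute injury).

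Genes that build, feed and control the proteasome, from lists chosen with earlier results of these data known, gave the surroundings of these changes. Their counts are read against the shares of all genes tested, of which 35.8% rose and 38.3% fell in acute injury, 35.8% and 35.4% in fibrosis, and 28.8% and 25.7% in cirrhosis. Of 12 assembly factors and transient partners tested, 8 rose and 1 fell in acute injury, 7 and 1 in fibrosis, and 3 and 2 in cirrhosis, the last near or under those shares. Usp14 and Uchl5, which trim ubiquitin chains at the regulatory particle, rose by 2.92 and 2.46 log2 units in acute injury and by 0.71 and 1.13 in cirrhosis. Akirin2, which brings proteasomes into the nucleus, rose by 1.24 and 1.35 at the early stages. Pomp, the maturation factor of the core, fell by 1.99 in acute injury but was low, at 3.70 ± 1.42 CPM (SD, n = 6) in healthy and 0.901 ± 0.345 (n = 5) in acute libraries.

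Of 7 genes known for transcription of subunits, 3 rose and 1 fell in acute injury, 4 and 1 in fibrosis, and 2 and 0 in cirrhosis, so the shares that rose in acute injury and cirrhosis were near those of all genes. Nfe2l1, which encodes NRF1, rose by 0.77 and 0.70 log2 units at the early stages (adjusted p = 0.000208 and 0.000302), and Ddi2, the protease that activates NRF1, by 1.72 and 1.90. In cirrhosis both were near the healthy level (−0.08, adjusted p = 0.603, and 0.18, adjusted p = 0.291). Of 16 rows for ubiquitin and its delivery, 8 rose and 5 fell in acute injury, 8 and 4 in fibrosis, and 1 and 5 in cirrhosis, so the shares that fell were not far from those of all genes. The polyubiquitin gene Ubb fell by 2.44 in acute injury and Vcp, the unfoldase that delivers substrates, rose by 1.19.

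Of 14 interferon regulators and peptide-loading genes tested, 2 rose and 9 fell in acute injury, 1 and 9 in fibrosis, and 1 and 6 in cirrhosis. From fibrosis to cirrhosis 8 rose and 0 fell, where 34.5% and 29.7% of all genes did. Irf1, a transcription factor known to drive the inducible subunits, fell by 5.45, 4.74 and 0.87 log2 units at the 3 stages, and Tap1, which carries proteasome products into the endoplasmic reticulum, by 3.17, 2.81 and 1.14. In the TAA experiment Irf1 (0.97) was higher and Ifngr2 (−0.88) lower in the TAA control libraries. The immediate early list moved with the same groups, with the values given above. Ifng did not pass the filter on low counts.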

How the data were processed

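LSEC mRNA was made into stranded libraries. The submitters' processing notes name FastQC, Trim Galore, STAR, RSEM and the build Rnor_6.0. The authors deposited expected counts from RSEM, 1 value for each of 32623 genes per library, neither normalized nor pooled. RSEM divides reads that fit several genes, and 10 members had values that were not whole in some library, among them Psma4, Psmb3, Psmb5, Psmb6, Psmb8 and Psme1.

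Expected counts were rounded. Main tests were limma-voom with TMM factors and filterByExpr on the libraries of the 2 groups compared, without covariates, using limma 3.58.1. edgeR 4.0.16 supplied TMM, DESeq2 1.42.0 an alternative test, and R 4.3.3, Python 3.11.15 and matplotlib 3.10.9 were the environment. The threshold was the study's, an unadjusted p under 0.05 and a fold-change above 1.5, and adjusted p-values are Benjamini-Hochberg over all genes tested. SE and confidence intervals are limma-voom's. CPM used TMM factors over the 22 CCl4 libraries or over the 10 of the TAA experiment, and log2 CPM a pseudocount of 0.5. Levels of the 2 experiments were set on separate scales, and set side by side they also differ in strain or experiment. Depth per library was 25646501 to 46464271 counts, which limits the precision of low genes. Each library was taken as 1 rat, and p-values measure the spread between these libraries.

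Groups came from the sample labels. The members follow from a rule on symbols alone, but this gene family and all gene lists were chosen with earlier results of these data known. Members given library by library were the cutting subunits, the caps, Psmf1 and the members with the 2 largest called rises and falls of a comparison with a mean of at least 1 CPM The others are given by range and count, and Psmd2, Psmd4 and Psmd14 were named for their role after their values were seen. limma-voom, edgeR and DESeq2 were first checked on simulated counts with known changes, laid out as acute injury against healthy and judged by adjusted p. The other alternatives and the choice of scaling were not checked this way. The simulation changed only a small share of genes, with rises and falls in equal number. It therefore cannot show how the tests behave where most genes change, as in acute injury. Alternatives were adjusted p-values with and without the fold, edgeR, DESeq2, library-size CPM, DESeq2 size factors, no filter, 1 fit over the 4 CCl4 groups, replicate number as a block, each library left out and, added after seeing the data, healthy replicates 5 and 6 left out together. Promoters came from RefSeq (GRCr8), and gene positions on Rnor_6.0 were not used here. Other data of the study, a further motif and some genes of the lists are not reported here.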

Additional observations from a re-analysis of the deposited data

Results flagged for a closer look

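A library stood apart from the rest of its group for 4 of 84 groups of the members given library by library, where chance alone gives about 1 in 20, or 4.2. Psma4 was at 150 CPM in fibrosis replicate 12, where the nearest of the others had 168, and at 43.0 CPM in control replicate 3 of the TAA experiment, where the nearest had 51.1. Psmb10 was at 52.4 CPM in fibrosis replicate 12, where the nearest had 35.2. Psmf1 was at 30.0 CPM in TAA control replicate 10, where the nearest had 34.4.

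Some members were called higher than healthy LSECs in acute injury and lower in cirrhosis, with the difference between these 2 stages itself past the threshold in limma-voom. The log2 fold changes of cirrhosis against acute injury were −2.01 for Psmb3, −1.67 for the ATPase Psmc4, −1.80 for the scaffold subunit Psmd2 and −1.57 for Psmd3. Both calls against healthy share the same healthy libraries. The call of Psmb3 in acute injury and those of Psmc4, Psmd2 and Psmd3 in cirrhosis were lost under some alternatives.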

How the results depend on the processing

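No single-member log2 fold change that was called reversed its sign under any alternative computed. Between fibrosis and acute injury 0 members were called, but 2 by adjusted p without a fold threshold and 1 without the filter on low counts. In the TAA experiment 1 member was called, but 19 by adjusted p without a fold threshold and 2 each with edgeR, DESeq2 and library-size CPM. With 1 library left out at a time, calls ranged from 29 to 34 in acute injury, 29 to 30 in fibrosis and 24 to 26 in cirrhosis against healthy LSECs, 0 to 0 between fibrosis and acute injury, 35 to 37 and 36 to 38 in cirrhosis against fibrosis and acute injury, and 1 to 2 in the TAA experiment. Library-size CPM moved the median log2 fold change of all genes from −0.09 to 0.32, from −0.03 to 0.37 and from 0.07 to 0.42 in acute injury, fibrosis and cirrhosis against healthy LSECs, and from 0.04 to −0.07 and from 0.04 to −0.06 in cirrhosis against fibrosis and acute injury, and the members called there were 32 higher and 3 lower, 29 and 3, 12 and 8, 1 and 34, and 2 and 35. Of single calls, Psmd3 in cirrhosis was lost without healthy replicate 3 or 4 or cirrhosis replicate 2, Psmd2 without healthy replicate 2, and Psmc4 in fibrosis without healthy replicate 6. Over all leave-one-out fits, 30 single-member results gained a call and 9 lost one. Psma5 in cirrhosis, not called in the main test, was called higher without healthy replicate 2, 3 or 6 (0.59 to 0.65). It was also called without cirrhosis replicate 2, 3 or 4 (0.59 to 0.62). The cause of these changes was not tested. With the replicate number as a block the counts were 29, 25 and 37 in acute injury and cirrhosis against healthy and cirrhosis against acute injury, where Psmb3 (0.35) and Psmb8 (0.37) were no longer called and Psmb4 (−0.64) was. The numbers share no rat, and deviations of same-numbered libraries correlated at −0.274 to 0.329, so they were not treated as pairs. RNA levels say nothing of assembled proteasomes or their activity, which were not measured here.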
